A study of Homo sapiens with 18 samples.

Results

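The cytosolic ribosomal protein genes encode the protein subunits of the ribosome that translates nuclear mRNAs. They were taken here as the genes with a standard large subunit (RPL), small subunit (RPS), P stalk (RPLP0, RPLP1, RPLP2) or RPSA symbol whose mean normalized count reached 500. Of 26702 genes in the deposited tables, 77 carried such a symbol and 67 reached the minimum, 41 of the large and 26 of the small subunit. The cells were U2OS, a human osteosarcoma line, transfected with siControl, siANKRA2 or siRFXANK and given either DMSO or 10 µM Nutlin-3a for 24 h. Nutlin-3a blocks the binding of MDM2 to p53 and so stabilises p53. ANKRA2 and RFXANK are related ankyrin repeat proteins that bind partner proteins of other families. Each of the 6 groups had 3 samples of polyadenylated RNA, 18 in all, and every group shared the cell line and an siRNA transfection. The labels gave no culture or passage for the samples, and the siRFXANK samples had label fields that the others lacked, which gave bone as the tissue, epithelial as the cell type and a wild-type genotype.

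The 6 tables held 22738 to 26702 genes each, 22738 of them in every table. Each gene had 1 mean normalized count, identical in every table that held the gene, and this authors' mean is the level reported here. It has no SD and no replicate number, and which samples entered it is not given in the sources used here. Values of single samples and group means were not analysed here, and the columns of the authors' own comparisons were not used. The levels below are therefore an average over samples that are not named, and neither Nutlin-3a, siANKRA2 nor siRFXANK can be compared through them. The median level of all 26702 genes was 87.31 and 33.0% of them had a mean of at least 500.

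The osteoblast lineage genes SPARC and COL1A1 had means of 29456 and 64042. RUNX2, the osteoblast transcription factor, was at 454.3, while COL1A2 was at 33.16, ALPL at 148.2 and BGLAP at 2.08. IBSP and SP7 were not in the tables. Of the markers of other cell types, the leukocyte gene PTPRC was at 3.81 and the endothelial gene PECAM1 at 1.33, the epithelial genes EPCAM and KRT18 were at 160.7 and 12960, and CD3E and ALB were not in the tables. ANKRA2 and RFXANK had means of 31568 and 758.0, and a single mean over unnamed samples cannot check their knockdown. The mean of ANKRA2 is very high for a knockdown target, far above the median of 87.31 for all genes, and the reason was not examined.

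Each ribosome holds most ribosomal proteins in a single copy, so cells make the subunits in about equal numbers, and their mRNAs rank among the most abundant of growing cells. Most vertebrate ribosomal protein mRNAs begin with a C followed by an uninterrupted stretch of pyrimidines, the 5′ terminal oligopyrimidine tract. Through this tract their translation follows the activity of mTOR complex 1, which p53 signalling restrains. That control acts on how much of the mRNA is translated, whereas the counts here measure the amount of mRNA. Vertebrate genomes also hold many processed pseudogenes of these genes, intronless copies that arose from their mRNAs.

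The start of the transcript was examined first, because the tract that links these mRNAs to mTOR lies there. RefSeq starts on GRCh38.p14 were found by symbol for 54 of the 67 genes, 69 starts in all. The windows printed run 5′ to 3′ on the sense strand from 10 bases before the annotated start to 20 bases of the transcript, so that base 11 is the start. Capitals mark the run of C and T that begins with C. The first 6 windows, taken from genes of the roles described below, show how the run sits against the start, and the last pair, RPS4X and RPS29, are windows in which no such run was found.
RPS6, chr9:19380217-19380246, minus strand: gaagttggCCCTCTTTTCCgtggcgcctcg
RPL11, chr1:23691796-23691825, plus strand: gctccgCTTTCTCTTCCTgctctccatcat
RPLP1, chr15:69452808-69452837, plus strand: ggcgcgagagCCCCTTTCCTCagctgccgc
RPS19, chr19:41860245-41860274, plus strand: ccccgtcgttCCCTTTCCCCTggctggcag
RPS3, chr11:75399508-75399537, plus strand: cgagccaCTTCCTTTCCTTTCagcggagcg
RPL7A, chr9:133348208-133348237, plus strand: attCCCTTTCCTTTCTCTCTCCTCCCgccg
RPS4X, chrX:72277229-72277258, minus strand: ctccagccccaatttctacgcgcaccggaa
RPS29, chr14:49598691-49598720, minus strand: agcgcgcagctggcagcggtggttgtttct

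In RPLP1 and RPS19 the run began on the annotated start itself, at position +1. In RPS6, RPS3, RPL11 and RPL7A it began 2, 3, 4 and 7 bases before it. The runs of RPS6, RPLP1 and RPS19 were 11 bases long, those of RPL11 and RPS3 were 12 and 14, and that of RPL7A was 23 bases, the longest among the members. RPL11 and RPS19 each had another annotated start in the table, with runs of 5 and 6 bases. A run of at least 5 pyrimidines beginning with C, with its first base from 10 before to 10 after the start, was present at 55 of the 69 member starts (79.7%). The same search found it at 11404 of all 35116 RefSeq starts (32.5%). By gene, 49 of 54 members (90.7%) had at least 1 such start, against 10205 of 27305 genes (37.4%). Only the sense strand was searched, and runs of this kind include plain C or T stretches of any other motif.

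As longer runs were asked for, the share fell less among the members than among all starts. Runs of at least 8 pyrimidines stood at 63.8% of member starts and 8.86% of all starts, and runs of at least 10 at 58.0% and 4.27%. The median run was 11 bases among member starts that had one and 6 bases among all such starts. At 35 member starts the run began between 5 bases before the start and the start itself. Mitochondrial ribosomal proteins, which are nuclear-encoded subunits of a separate ribosome, had a run at 27 of 85 starts (31.8%) and one of at least 8 bases at 4.71%. Ribosome biogenesis factors had a run at 7 of 20 starts (35.0%), 3 of them of at least 8 bases. A list of other mRNAs known for such tracts, among them EEF1A1, EEF2, PABPC1 and TPT1, had one at 10 of 13 starts (76.9%) and one of at least 8 bases at 38.5%. Of the 14 member starts without a run, some belonged to genes with a run at another start. The 5 members with no run in the searched positions of any start were RPL6, RPL15, RPL27, RPS4X and RPS29. In RPL15 and RPL27 a pyrimidine run beginning with C lay just past those positions. Of the 67 members, 13 had no start in the table used.

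**Figure D1:**
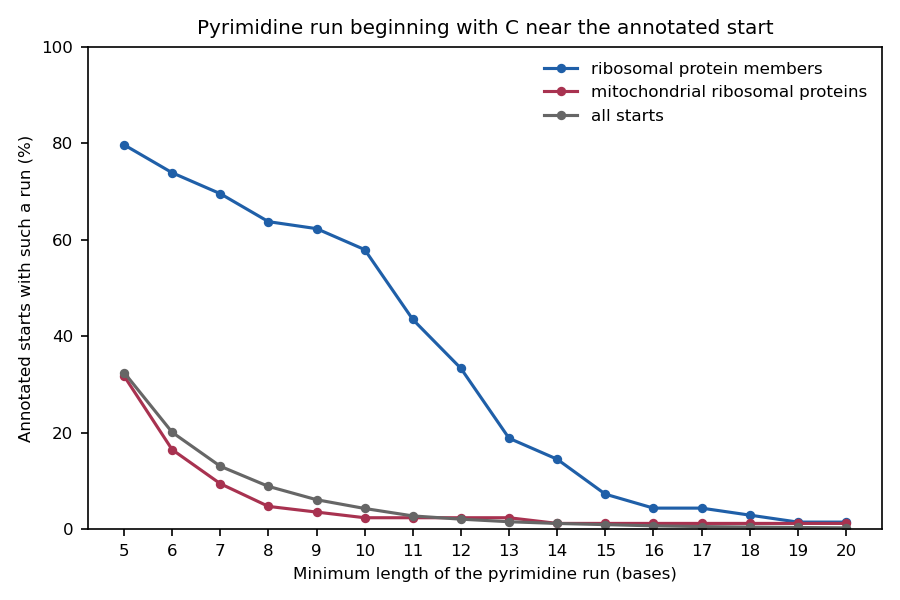
The plot of pyrimidine runs shows the percent of annotated RefSeq starts (vertical axis) that have a run beginning with C of at least the given number of bases (horizontal axis), for ribosomal protein members (69 starts), mitochondrial ribosomal proteins (85 starts) and all 35116 starts. The member line lies at 79.7% for 5 bases and at 63.8% for 8 bases, where the line for all starts has 32.5% and 8.86%.

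The levels of the 67 genes are described here, with the minimum of 500 itself fixing the low end. Their mean normalized counts ran from 809.9 to 66016 with a median of 11340, which lay at the 98.9th percentile of all genes. Over all 77 genes, with no minimum, the median was 9381, at the 98.6th percentile. The quartiles of the 67 members were 5444 and 18184. RPL8 alone was among the 10 genes with the highest means, 11 were among the highest 100, 46 among the highest 500 and 53 among the highest 1000, and the ranks ran from 9 to 7018. Together they held 3.30% of the summed means of all genes, 1.89% for the large and 1.41% for the small subunit. By mean count, without regard to length, RPL8 (66016), RPL4 (33815), RPS20 (30210) and RPS19 (27131) were among the highest 5. The lowest 5 were RPL12 (1957), RPL22 (1206), RPL9 (1062), RPS15A (847.3) and RPL41 (809.9).

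**Figure D2:**
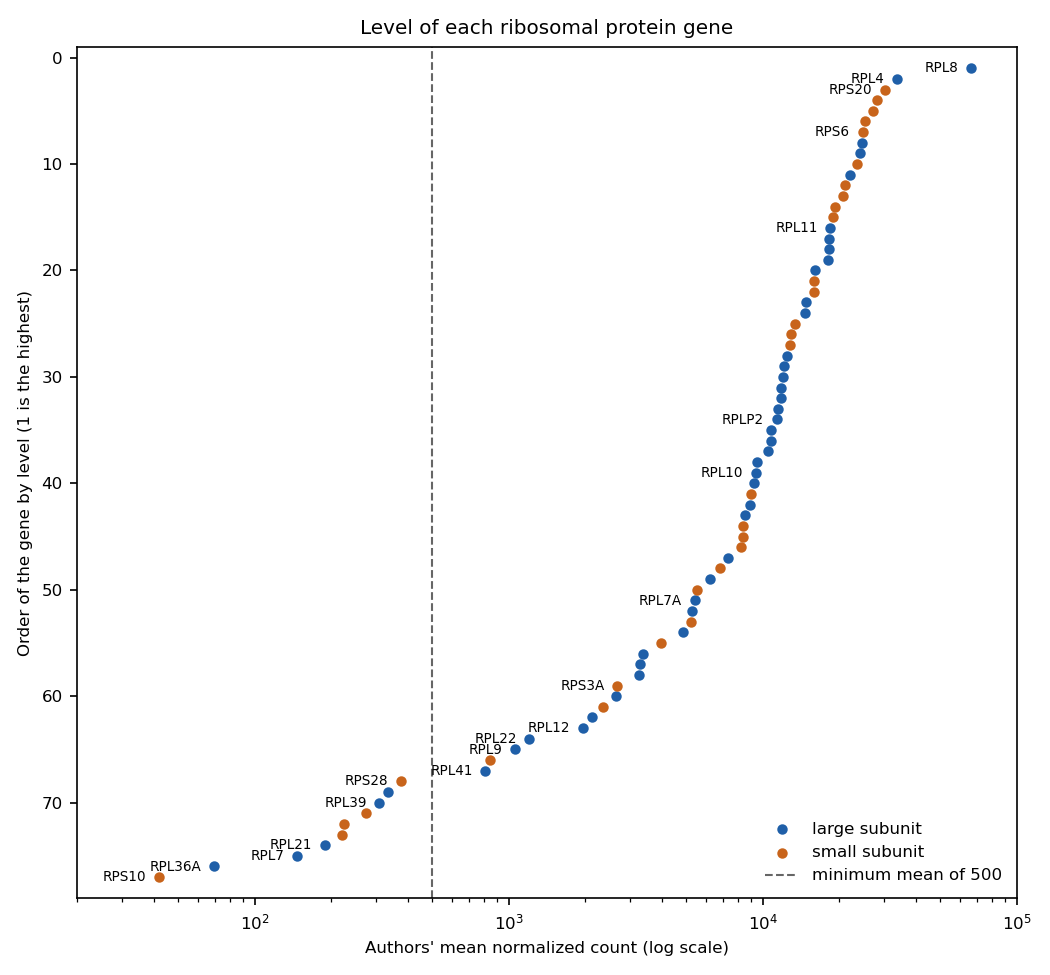
The plot of levels shows the authors' mean normalized count (horizontal, log scale) of each of the 77 genes with a ribosomal protein symbol, placed by order of level (vertical, 1 is the highest) and coloured by subunit, with some genes named and a dashed line at the minimum of 500. RPL8 stands apart at 66016, RPL41 is the last gene above the line at 809.9, and the 10 genes left of the line run from 376.9 down to 41.87.

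Longer transcripts give more fragments, so genes were compared by the mean per kilobase of annotated exon (GENCODE 29, all exons of a gene merged). On this scale the members ran from 126.9 to 30577 per kb, a 241-fold range, with a median of 2865 per kb. The upper quartile was 4.14 times the lower. RPL8, which lies beside the peptidyl transferase centre, was the highest at 30577 per kb. The small subunit genes RPS12 (16891), RPS21 (12472) and RPS20 (10063) were also among the highest 5. The lowest were RPS15A (126.9), RPL9 (211.5), RPL22 (257.6) and RPS7 (422.1). Merged exons count retained introns and rare long transcripts as length, so the levels were also taken per kilobase of coding sequence of the principal transcript. They then ran from 1844 to 86587 per coding kb, a 47.0-fold range. The highest were RPL38 (86587), RPL8 (85624), RPS20 (84623), RPLP1 (70648) and RPL37A (65884). RPL9 (1844), RPS15A (2173), RPL22 (3141), RPS3A (3370) and RPL12 (3954) were the lowest. RPL8 and RPS20 were thus in the top 5 and RPL9, RPS15A and RPL22 in the bottom 5 on both scales. The level per coding kb divides the whole count of the gene, untranslated ends included, by the coding length alone. Genes with a short coding sequence and long ends therefore rank higher on it. Per kb of the whole principal transcript, RPL37A had 4986 and RPL38 15541. The member median was 8967 on that scale, and RPL8 had 63416.

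The small subunit members had the higher median. It was 4247 per kb of exon for the 26 small subunit genes and 2404 per kb for the 41 large subunit genes, a ratio of large to small of 0.566. Per coding kb the medians were 25485 and 19638, a ratio of 0.771. The ranges of the subunits overlapped over most of their length. Genes are not replicates, and this difference was not tested.

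In the large subunit, RPL5 and RPL11 form a particle with 5S rRNA that binds and inhibits MDM2 when it is free of the ribosome. RPL11 had 6934 and RPL5 3253 per kb of exon, from means of 18437 and 12090. Per coding kb they had 34526 and 13569, so RPL11 lay above the member median on both scales (2865 and 21998), and RPL5 only on the first. RPL5 shared 74.45% of its coding sequence with other genes and RPL11 11.9%, as described below. RPLP0 anchors the P stalk, the flexible arm that recruits elongation factors, and RPLP1 and RPLP2 form its dimers. These had 6145, 7387 and 5800 per kb of exon, and 25853, 70648 and 32869 per coding kb. RPL12, which sits at the base of the stalk, had 798.3 per kb of exon and 3954 per coding kb. Of the proteins near the peptidyl transferase centre, RPL3 had 4593 and RPL10 1944 per kb, both far below RPL8.

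The proteins that line or surround the tunnel through which the new chain leaves covered a wide span. RPL19 had 8409 and RPL4 5999 per kb. RPL35 followed with 2209, RPL31 with 1256, RPL23A with 1155 and RPL26 with 1053 per kb, all below the member median. RPL22 was lowest of the members in this list at 257.6 per kb. The tunnel proteins RPL39 and RPL17 were under the minimum mean, with 144.5 and 135.3 per kb. The levels in this and the other role lists are not corrected for sequence shared with other genes, which is described below. Of the coding sequence, RPL23A shared 93.38% and RPL22 91.53%, while RPL19 shared 64.49% and RPL4 73.06%.

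In the small subunit, RPS6, the ribosomal protein phosphorylated by the S6 kinases downstream of mTOR complex 1, had a mean of 24726 and 9110 per kb. RPS2 and RPS3 stand where the mRNA enters, and had 8016 and 4277 per kb. RPS15 and RPS23, close to the decoding centre, had 4217 and 1618 per kb. At the site where the mRNA leaves, RPS14 and RPSA had 4610 and 2122 per kb, and RPS26 and RPS28 did not reach the minimum mean. RPS27A, made as a fusion to ubiquitin, had 2677 per kb. FAU, which encodes a ribosomal protein fused to a ubiquitin-like protein under another symbol, had 3458 per kb.

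Several ribosomal proteins, RPL5 and RPL11 among them, are known to bind MDM2. In a list of 7 such genes, RPL23 had 1545 and RPS7 422.1 per kb, while RPL5, RPL11, RPS3, RPS14 and RPS27A had the values given above, and the list's median was 3253 per kb. A list of 11 genes whose mutations cause Diamond-Blackfan anaemia, a failure of red cell production, shared RPL5, RPL11 and RPS7 with the MDM2 list. Of its other genes, RPS19 had 7142, RPL35A 4719, RPS24 2028, RPL15 1499 and RPS29 837.7 per kb of exon. RPS29, whose merged exons span 9845 bases, was in place 60 of the 67 on that scale and in place 10 per coding kb, with 49091. RPS10 and RPS26 of the same list were under the minimum mean. The X-linked RPS4X had 6919 per kb, RPL10 had 1944, and the X-linked RPL39 and RPL36A had 144.5 and 17.47.

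Lists of other genes of translation were set beside the members, which had passed a minimum that these lists had not. The 78 mitochondrial ribosomal protein genes had a median of 607.1 per kb of exon with a range of 7.75 to 4581, against 2865 for the cytosolic members. The 20 ribosome biogenesis genes, which make and process rRNA, had a median of 877.1 per kb and the nucleolar gene NCL was their highest at 4103. The other mRNAs with a start tract were closest, with a median of 2080 per kb over the 15 of 16 that were in the tables. EEF2, the elongation factor that moves the ribosome along the mRNA, was their highest at 17987 per kb. With the minimum of 500 placed on each list, the medians were 687.4 per kb for 70 mitochondrial ribosomal protein genes, 997.5 for 19 biogenesis genes and 2080 for the same 15 tract mRNAs, and without it the 77 ribosomal protein genes had 2404. RACK1, a scaffold protein of the small subunit, had 4986 per kb.

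**Figure D3:**
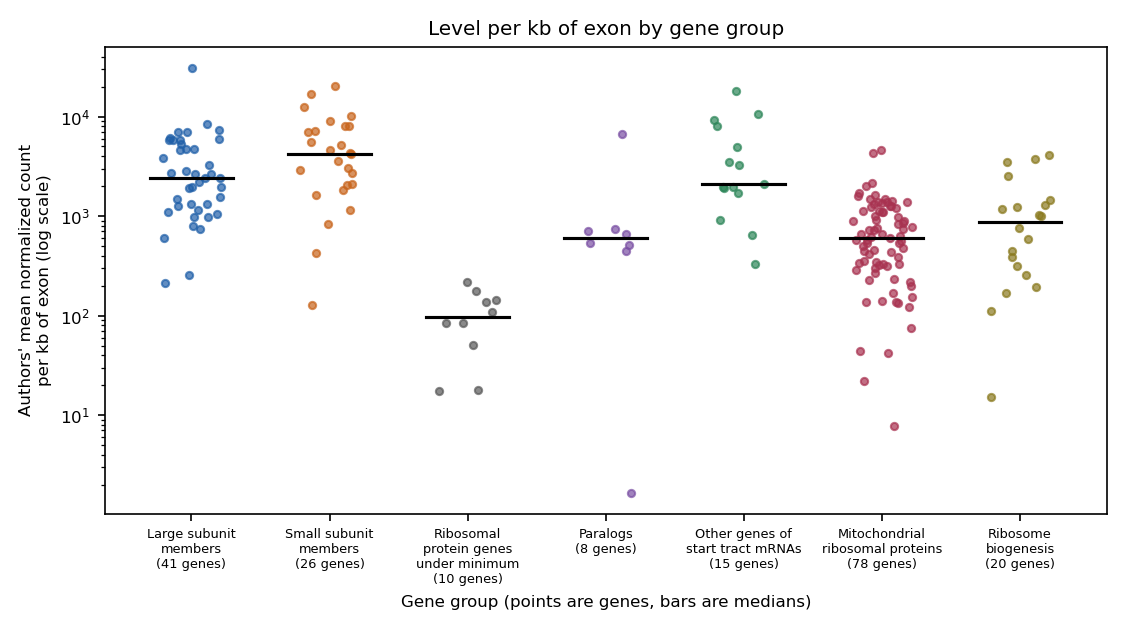
The plot of gene groups shows the authors' mean normalized count per kb of exon (vertical, log scale) for each gene of 7 groups, with a bar at each group's median. The small subunit (4247) and large subunit members (2404) have the highest bars, the mitochondrial ribosomal proteins are at 607.1, and the 10 ribosomal protein genes under the minimum have a median of 95.63.

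Processed pseudogenes and other near copies share sequence with these genes, and a read from a shared stretch has more than 1 possible origin. How such reads were counted is not given in the sources used here. For each gene, every stretch of 31 bases of the principal transcript was looked up in the transcripts of all other genes that do not overlap it. In the members a median of 27.8% of stretches recurred in another gene, from 3.69% to 84.62%. Within the coding sequence alone the median was 73.06%, from 11.9% in RPL11 to 100% in RPS3A and RPL41. Among the 10 genes under the minimum mean, 8 had 100% of the coding sequence shared, and RPL17 had 94.06%.

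Genes with more shared coding sequence had lower levels. Across the 77 genes the share of the coding sequence and the level per coding kb had a Spearman rho of -0.77 and a Pearson r, with log2 levels, of -0.64. Over the 67 members alone these were -0.71 and -0.66. The points are genes that share the same mean over libraries, and they are not independent replicates. The 29 genes with at least 80% of the coding sequence shared had a median of 4050 per coding kb, and the other 48 had 26273. The groups overlapped, since RPLP0 had 25853 per coding kb with 82.52% shared, while RPS15A had 2173 with 70.56% shared. Of these 29 genes 9 were under the minimum mean, and of the 48 only 1 was. Over the whole principal transcript, untranslated ends included, the share and the level per kb of that transcript had a rho of -0.13 over the 77 genes and 0.044 over the members. The part of shared sequence in the levels was not tested.

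**Figure D4:**
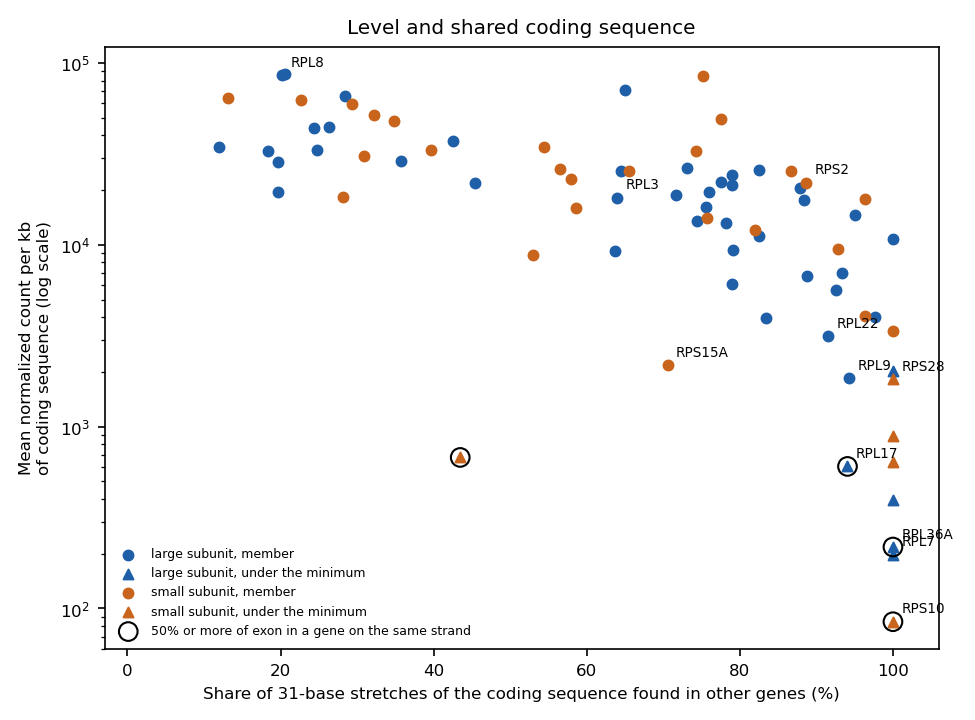
The plot of shared coding sequence shows, for the 77 genes, the percent of 31-base stretches of the coding sequence that occur in other genes (horizontal) and the mean normalized count per kb of coding sequence (vertical, log scale), with colour for the subunit, triangles for genes under the minimum and rings for genes with at least 50% of their exon sequence inside another gene on the same strand. The lowest member, RPL9, lies at 1844 per coding kb, below the triangle of RPL39 at 2022. Of the 10 triangles, 9 lie at 94.06% or more.

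Overlap with annotated genes was counted apart from these shared stretches. No member had 50% or more of its exon sequence inside another gene on its strand, and 7 had any such overlap, the widest being 38.74% in RPL26. Under the minimum, 4 genes exceeded 50%, and 3 of them also had 94.06% or more of the coding sequence shared. RPS10 had 87.96% inside the readthrough gene RPS10-NUDT3, RPL36A had 77.62% inside RPL36A-HNRNPH2 and RPL17 had 76.25% with RPL17-C18orf32 as the main partner. Reads in such stretches belong to more than 1 annotated gene. On the opposite strand, 20 members overlapped a gene, among them RPL38 with 57.78% and RPL10 with 56.64%. Whether counting used the strand is not given in the sources used here, so reads of these genes and of their antisense partners may not be told apart.

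Many pseudogenes of the members had counts of their own. The tables held 304 rows named as pseudogenes of 62 members, and their means summed to 387021, or 44.5% of the members' own sum. For 22 of the 67 members the pseudogene rows summed to more than the gene itself. RPLP0P6, a processed pseudogene of RPLP0, had a mean of 39062, which was 1.59 times that of RPLP0. RPL13AP5 had 36021, which was 2.89 times that of RPL13A, and RPS13P2 had 11550, or 2.91 times that of RPS13. RPL9P9 had 4727 against 1062 for RPL9, a ratio of 4.45. RPL14P1 and RPSAP58 were at 17471 and 15803, or 2.05 and 1.89 times RPL14 and RPSA. RPL4P4 reached 23488, which was 0.695 of RPL4. RPL8, the member with the highest level, had a single pseudogene row in the tables, and its mean was 1021. These ratios are of counts and not per length, and counts of a pseudogene and its gene cannot be told apart where the sequence is shared.

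**Figure D5:**
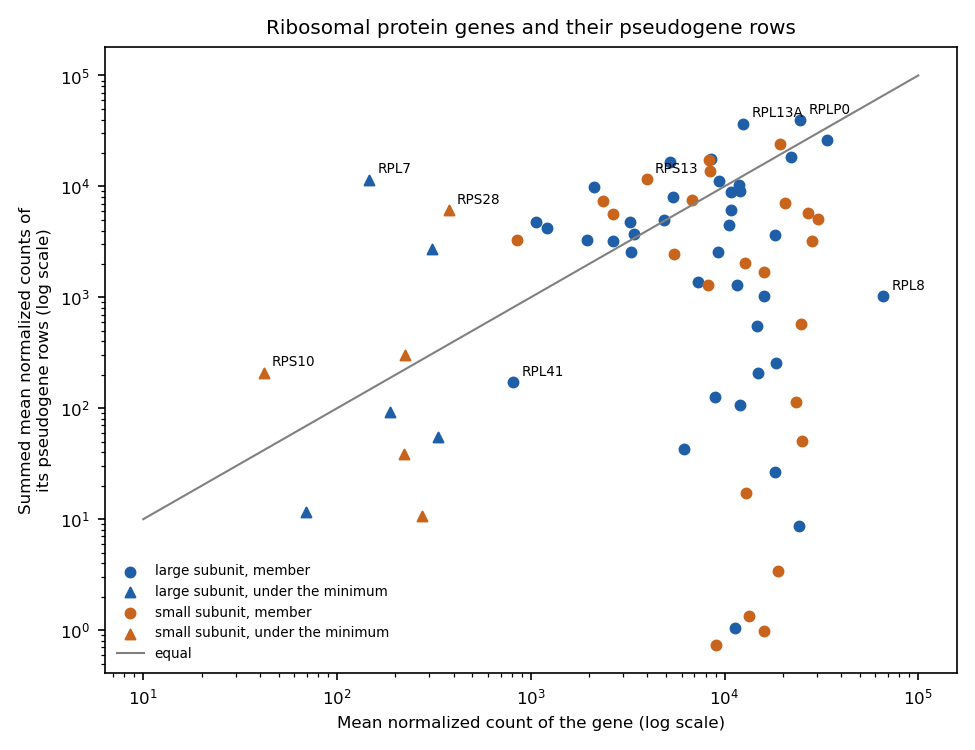
The plot of pseudogene rows sets the mean normalized count of each gene (horizontal, log scale) against the summed means of its pseudogene rows (vertical, log scale), with a line where they are equal; genes with no such row are left out. Points above the line include RPLP0, RPL13A and RPS13 among the members, and RPL7 (146.9 against 11502) and RPS28 (376.9 against 6117) among the genes under the minimum.

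The 10 genes under the minimum encode ribosomal proteins like the members do, and the minimum separated them by level alone. The last members above it were RPL9 (1062), RPS15A (847.3) and RPL41 (809.9), and the first genes below it were RPS28 (376.9), RPL17 (333.6) and RPL39 (309.4). RPS27 (224.6), RPS26 (220.5), RPL21 (188.6), RPL7 (146.9), RPL36A (69.25) and RPS10 (41.87) lay further below. Together they held 0.00828% of the summed means. Their 49 pseudogene rows summed to 21069, or 9.64 times their own sum of 2186. RPL7P9 alone had 7534, or 51.3 times RPL7, and RPS28P7 had 6117, or 16.2 times RPS28. A pyrimidine run was present at 7 of the 8 annotated starts of these genes.

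Some ribosomal proteins have a paralog that encodes a related protein, and several of these can take its place in the ribosome. RPL22 had 257.6 and RPL22L1 734.7 per kb of exon, so the paralog was 2.85 times as high, and 1.49 times as high per coding kb. However, RPL22 had 91.53% of its coding sequence shared, and its pseudogene rows summed to 4186 against its own mean of 1206. Of the whole principal transcript, 15.97% was shared in RPL22 and 4.26% in RPL22L1. RPL26 exceeded RPL26L1 (1053 and 535.5 per kb), and RPL10 exceeded RPL10L (1944 and 517.1 per kb). RPL3 had 4593 per kb and RPL3L, known from striated muscle, had 1.67. For genes under the minimum, whose low level was what placed them there, the values of 4 pairs are given as a description. RPL36AL had 6671 per kb against 17.47 for RPL36A, a ratio of 382 that became 71.9 per coding kb. RPL39L had 715.0 against 144.5 for RPL39, with ratios of 4.95 per kb of exon and 2.45 per coding kb. RPL7L1 had 443.2 against 50.52 for RPL7, with ratios of 8.77 and 22.9. RPS27L, a p53 target, had 667.7 against 217.0 for RPS27, with ratios of 3.08 and 27.1. These 4 genes under the minimum each had 100% of the coding sequence shared. Pseudogene rows summed to 2730, 11502 and 302.0 for RPL39, RPL7 and RPS27, above each gene, and to 11.52 for RPL36A, below it. RPL36A also had 77.62% of its exon sequence inside the readthrough gene RPL36A-HNRNPH2, where reads belong to more than 1 annotated gene. The ratios of RPL22 and of these 4 genes leave pseudogene and readthrough rows out, and do not settle which of a pair was higher. RPS4Y1 and RPS4Y2, the Y-linked copies of RPS4X, were not in the tables.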

How the data were processed

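RNA-seq of polyadenylated RNA was measured in 18 U2OS samples, grouped by the siRNA and treatment in their labels. The authors deposited 6 comparison tables, each with a mean normalized count per gene, a signal scaled by library size. For what the authors ran, the submitters' processing notes name bcl2fastq 2.20.0.422, Trimmomatic 0.39, FastQC 0.11.9, cutadapt 2.10, SAMtools 1.10, Picard, featureCounts 1.6.5, DESeq2 1.20.0 and hg38. The aligner, annotation, strand setting and handling of reads with several positions are not given in the sources used here. The tables also hold the authors' log2 fold changes, standard errors, Wald statistics, p-values and adjusted p-values, which were not used. The mean alone gives no SD, test or comparison between groups, and the depth per sample is unknown.

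Tables that held a gene gave it identical means (22738 genes were in all 6). Gene IDs matched GENCODE 29 (GRCh38) for 26659 of 26702 genes (99.8%), which gave exon lengths, coding lengths, transcripts and overlaps. Shared sequence was counted as 31-base stretches found in transcripts of other genes, whether or not these were near copies. For RPL14 such stretches occurred in 3223 other genes, 126 of them pseudogenes. Pseudogenes were the rows named by the gene symbol followed by P and digits. Starts came from RefSeq (GRCh38.p14), 250 bases before to 50 after each. Python 3.11.15, pandas 2.3.3, numpy 2.4.6 and scipy 1.17.1 were used, and the searches were tested on simulated sequences. Genes named were the 5 highest and 5 lowest by mean and per kb, the 3 on each side of the minimum of 500, and all genes of fixed role lists. Some genes that this rule takes in are not reported here. Other genes, and the pseudogenes, were named after their values were seen. The members and lists were chosen with earlier results of these data known.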

Additional observations from a re-analysis of the deposited data

How the results depend on the processing

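No paired analysis was possible because the tables hold 1 mean per gene and no value of a single sample, and leaving out a replicate was not possible for the same reason. The values describe the members chosen, so they move with the choice. With a minimum mean of 100, 1000 or none in place of 500 there were 75, 65 or 77 members, with a share of the summed means of 3.31%, 3.29% or 3.31% (3.30% as reported), a median level of 9505, 11536 or 9381 (11340), a large to small ratio of medians per kb of 0.668, 0.587 or 0.679 (0.566) and a range of levels per kb of 605.0-fold, 145.0-fold or 1750-fold (241-fold). Without mitochondrially encoded genes in the sum the share was 3.33%, and with pseudogene rows added to the members it was 4.76% and the median level 15226. The ratio of large to small was 0.571 with the longest transcript as the length and the range 287.0-fold. Further alternatives were chosen after seeing the data. The principal transcript gave a ratio of 0.514 and a range of 165.0-fold, and its coding length gave 0.771 and 47.0-fold. Over the 30 members with under 20% of stretches shared, the share was 1.71%, the median level 11818, the ratio 0.622 and the range again 241-fold. The equal minimum on other gene lists, given with those lists, was also added then. The ratio was below 1 under each alternative for which it was computed. It was not computed with pseudogene rows added. The share of member starts with a pyrimidine run was 59.4% when counted from a C on the annotated start (4.07% of all starts). Such a run may begin before the start, as that of RPS6 did. The share was 91.3% for runs that begin within 20 bases of the start (50.5%) and 63.8% for runs of at least 8 (8.86%). The planned coding length from RefSeq proteins and the planned lysine and arginine content were not run, since no protein sequences were used here. Depth per sample is unknown, so no counting interval is given.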

Other observations

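Small nucleolar RNAs, which guide the chemical modification of rRNA, are often encoded in introns of ribosomal protein genes. In GENCODE 29, 54 small nucleolar RNAs lay inside 25 of the 67 members. The share of all genes with one inside was not counted. There were 5 in RPL4 and 4 each in RPL7A, RPL13A and RPL23A. These 4 genes had 5999, 2404, 5270 and 1155 per kb of exon, on both sides of the member median of 2865. The members lay on 19 chromosomes, with 11 on chromosome 19, 7 on chromosome 3 and 6 on chromosome 17. The share of all genes on each chromosome was not counted, so these numbers do not show whether members are concentrated there.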
